A study of Homo sapiens with 4 samples.

Results

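The genes described here encode SR proteins, hnRNP proteins and other regulators of pre-mRNA splicing. They were chosen by name, with 59 genes listed, and 53 of them had an array row annotated to that gene alone, out of 33616 genes with such a row. Where a gene had several such rows, the brightest on average was used. The samples were H929 cells, an established human multiple myeloma line. The untreated group held 2 samples, and the treated group held 2 samples given 3 nM meayamicin B, with 8 h as the time stated for all 4. The labels name no vehicle for the untreated samples. Meayamicin B, an analogue of the natural product FR901464, inhibits splicing by binding SF3B, the part of the U2 snRNP that engages the branch point. Each sample had its own whole-transcript array, and their number limits the precision. Nothing in the labels ties replicates to separate cultures, so the p-values reflect a spread between arrays that may be technical.

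SR proteins bind exonic enhancers through RNA recognition motifs and recruit the spliceosome through domains rich in arginine and serine. The hnRNP proteins coat nascent transcripts and often act at silencer sequences, and the balance between both classes helps to set which exons a cell includes. Many of these genes carry conserved exons or introns whose alternative splicing routes their own mRNA to nonsense-mediated decay, so their mRNA levels depend on splicing itself. Several members, among them SRSF1, RBM25, KHDRBS1, HNRNPF and HNRNPH1, are known to influence the choice between the long and short isoforms of BCL2L1, a relative of BCL2, whose dependence the title of the study names. The arrays gave 1 value per gene, so isoforms were not told apart.

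All values below are on the log2 scale, and a difference is the mean of the meayamicin B arrays minus the mean of the untreated arrays. A row was above background in an array when it exceeded the 95th percentile of that array's 612 negative control rows, which lay at 4.50 and 4.76 in the untreated arrays and at 5.03 and 5.13 in the treated arrays. The members were well measured, with 52 of 53 above background in all 4 arrays and 48 with a mean of at least 8. All 12 plasma cell and myeloma markers, among them SDC1, IRF4 and TNFRSF17, were above background. Their median difference was -0.26, 4 had an unadjusted limma p under 0.05, and 3 were called in the trended fit described below and 0 in the default fit. Of 30 markers of monocytes, T cells, erythroid, epithelial and fibroblast cells, 8 were above background (among them CD28 and CSF1R), while CD14, CD3D, EPCAM and DCN were not. By limma 0 of these 30 passed in either fit used here, and 3 had an unadjusted p under 0.05. The median difference of the 30 was 0.14, and the part of either marker list in the results below was not tested.

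Splicing regulators differed in both directions after meayamicin B, with 25 members higher in both treated arrays than in either untreated array, and 16 lower in both. HNRNPDL, an RNA-binding protein of the HNRNPD family, had the largest positive difference (0.99, or 1.99-fold), followed by RBM39 (0.83, or 1.77-fold). Among members above background, PTBP3 (-0.80, or 1.75-fold lower) and TIA1 (-0.77, or 1.71-fold lower) had the lowest. The median difference over the 53 members was 0.10, with 33 above 0 and 20 below, against a median of -0.09 over the 14296 named genes above background. Of those genes 5603 lay above 0 and 8693 below. With the arrays centred on ribosomal protein genes the members' median was 0.017, with 27 above 0 and 26 below, against -0.17 for the genes above background. After a second quantile normalization these medians were 0.19 and -0.03. In bulk RNA, fewer cells of a kind and less RNA per cell cannot be told apart.

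The share of members whose groups did not overlap was 47.2% upward, against 19.7% of all named genes, 18.9% of those above background and 21.2% of the 4575 above background with a mean of at least 8. Downward it was 30.2% of members, against 25.6%, 39.5% and 41.5% of the same sets. The replicate SDs of the members were small, with a median of 0.07, and 11 members differed by less than 0.1 either way. A difference of more than 0.5 in either direction was seen for 26.4% of the members, against 14.1% of all named genes, 23.0% of those above background and 18.7% of those with a mean of at least 8. The median size of the difference, regardless of sign, was 0.32 for the members, against 0.20, 0.25 and 0.22 for the same sets. The differences of the replicate 1 pair and of the replicate 2 pair correlated over the 53 members at a Pearson's r of 0.89 (Spearman's rho 0.87). It was 0.69 over all named genes above background, as a description across genes of the same 4 arrays. The sets differ in level, with a median of 10.12 for the members and 6.98 for those genes. No such correlation is given for genes of like level.

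With the default prior of limma, 0 of the 53 members passed an adjusted p under 0.05 over all rows tested, while 15 had an unadjusted p under 0.05. The lowest limma adjusted p was 0.150, that of HNRNPDL. An unadjusted limma p under 0.05 was also found for 3357 of the 14296 named genes above background. It was found for 973 of the 4575 of these with a mean of at least 8. The default fit called 0.0238% of all named genes higher and 0.00892% lower, and 0.049% and 0.021% of those above background. It called 0 of the 4575 with a mean of at least 8, where the lowest limma adjusted p was 0.0549. That range holds 48 of the 53 members. A second limma fit let the prior variance follow the signal level and made it robust to outlying rows, and is called the trended fit here. In it 4 members rose (HNRNPDL, RBM39, SRRM1 and SRSF4) and 6 fell (PTBP3, HNRNPAB, TAF15, RBM5, HNRNPM and HNRNPU). That is 7.55% of members upward, against 0.348% of all named genes, 0.727% of those above background and 1.29% of those above background with a mean of at least 8. Downward it is 11.3%, against 2.8%, 6.53% and 9.27% of the same sets, so the share lies close to that of genes of like level. Among those 4575 genes, HNRNPDL ranked 18 from the highest difference and RBM39 ranked 24, while PTBP3 ranked 257 from the lowest.

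**Figure D1:**
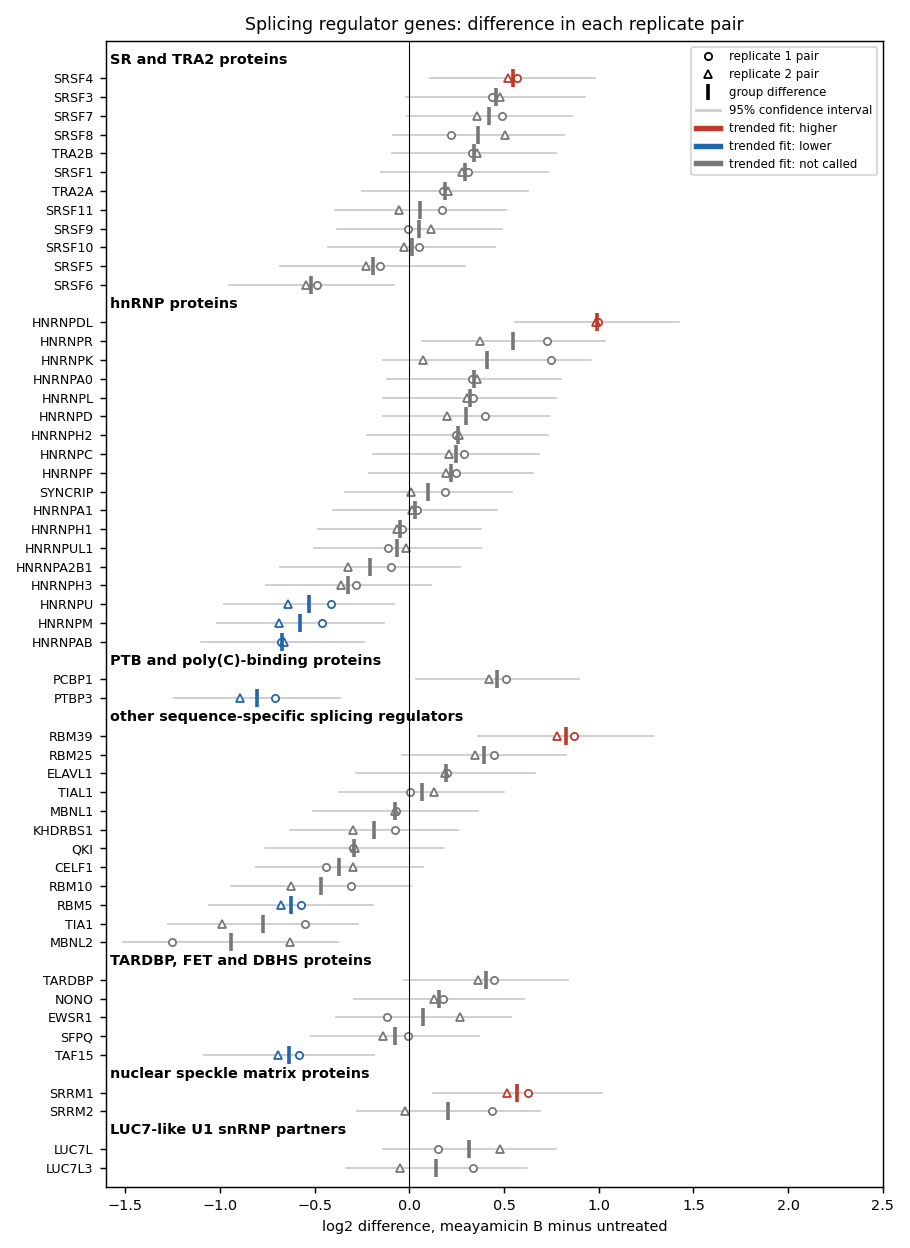
Log2 difference (horizontal axis, meayamicin B minus untreated) of each of the 53 splicing regulator genes by role group, with circles for the replicate 1 pair, triangles for the replicate 2 pair, bars for the group difference and grey lines for the 95% confidence interval of limma's default fit. HNRNPDL at 0.99 lies farthest to the right and MBNL2 at -0.94, a dim row, farthest to the left, with red and blue marking genes called higher or lower in the trended fit.

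Single arrays bore on these counts, in limma's trended fit with 1 lone array assumed to vary like the other group. The fit called 2 members higher and 3 lower without untreated replicate 1, and 1 higher and 1 lower without untreated replicate 2. It called 1 higher and 5 lower without meayamicin B replicate 1, and 4 higher and 2 lower without meayamicin B replicate 2. HNRNPDL and HNRNPAB were called the same way in 9 of 9 alternatives and PTBP3 in 8 of 9. The count was 3 higher and 8 lower with ribosomal centring, and 5 higher and 4 lower after a second quantile normalization. No share of all named genes is given for these settings, so their counts describe the members only.

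**Figure D2:**
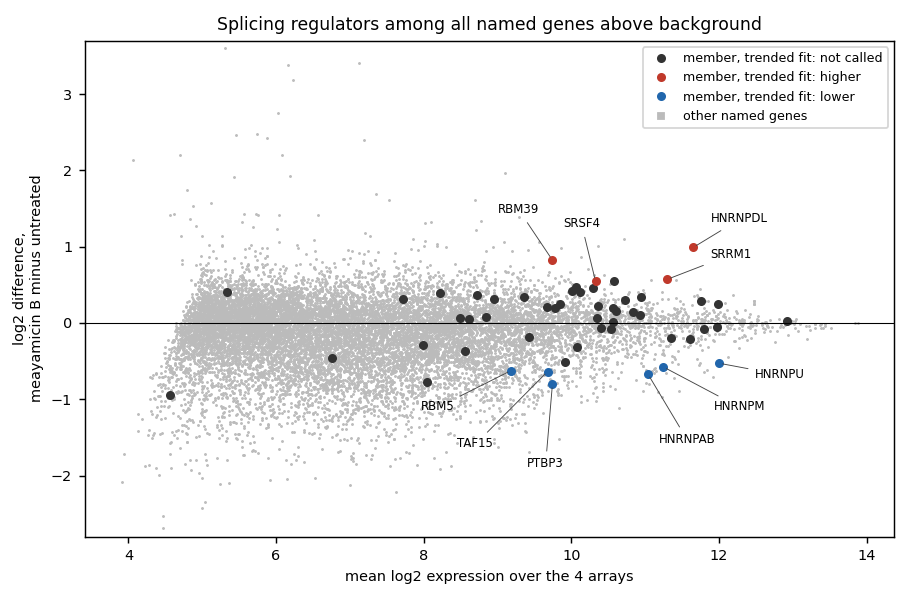
Mean log2 expression over the 4 arrays (horizontal axis) against the log2 difference (vertical axis, meayamicin B minus untreated) for the 14296 named genes above background in grey and the 53 members as larger points. The 10 members called in the trended fit are named, and most members lie at a mean of at least 8. The leftmost member is MBNL2, the 1 member that was not above background in both arrays of either group.

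The hnRNP genes, 18 of the 53 members, held the member with the largest rise and 3 of the 6 falls. HNRNPDL rose and HNRNPAB, HNRNPM and HNRNPU fell in the trended fit, out of 18 measured hnRNP genes. That is 5.56% upward and 16.7% downward, against 1.29% and 9.27% of named genes above background with a mean of at least 8. HNRNPDL lies on chromosome 4 at 82422564 to 82430462 (GRCh38) and had untreated values of 11.19 and 11.13 and treated values of 12.18 and 12.11. Both treated arrays stood above both untreated arrays by nearly the same amount. Its difference was 0.99 (SE 0.18, 95% confidence interval 0.56 to 1.42). The pairs gave 1.00 and 0.98, and it had a limma adjusted p of 0.00139 in the trended fit. HNRNPD, a related gene on the same chromosome at 82352498 to 82373991, encodes the AU-rich element binding protein AUF1. It had untreated values of 10.52 and 10.62 and treated values of 10.92 and 10.82, a difference of 0.30 (95% confidence interval -0.14 to 0.74) that did not pass in either fit (limma adjusted p = 0.253 in the trended fit).

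HNRNPAB, another gene of the same family, on chromosome 5 at 178204533 to 178211163, went the opposite way. Its untreated values were 11.38 and 11.37 and its treated values 10.70 and 10.71, so the replicates within a group nearly coincided and the groups stood apart. The difference was -0.67 (SE 0.18, 95% confidence interval -1.10 to -0.24), or 1.59-fold lower, with a limma adjusted p of 0.00617 in the trended fit. The difference between the responses of HNRNPDL and HNRNPAB was not tested as such, and neither gene passed in the default fit.

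HNRNPM, which regulates exon skipping at GU-rich sites, had untreated values of 11.48 and 11.59 and treated values of 11.02 and 10.90. Its difference was -0.58 (SE 0.19, limma adjusted p = 0.0149 in the trended fit). HNRNPU, a nuclear matrix and RNA-binding protein with a role in U2 snRNP maturation, had untreated values of 12.25 and 12.28 and treated values of 11.84 and 11.64. It fell by 0.53 (SE 0.19, limma adjusted p = 0.0177 in the trended fit), more in the replicate 2 pair (-0.64) than in the replicate 1 pair (-0.41). For both genes the treated arrays lay below the untreated ones without overlap. Without untreated replicate 2 or without meayamicin B replicate 2 neither passed in the trended fit, with limma adjusted p values between 0.0672 and 0.113. HNRNPU also missed it without untreated replicate 1 (limma adjusted p = 0.0699).

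The promoters of HNRNPAB and HNRNPM are shown as examples of hnRNP genes that fell. Each is the 250 bases before the start in RefSeq's table (GRCh38.p14), 5′ to 3′ on the gene's strand. Capitals mark matches on either strand to any of 5 motifs, the CCAAT box (CCAAT), the GC box (GGGCGG), the TATA box (TATAAA), an ETS site (CCGGAAG) and the E-box (CACGTG), which do not contain one another.
HNRNPAB, chr5:178204283-178204532, plus strand: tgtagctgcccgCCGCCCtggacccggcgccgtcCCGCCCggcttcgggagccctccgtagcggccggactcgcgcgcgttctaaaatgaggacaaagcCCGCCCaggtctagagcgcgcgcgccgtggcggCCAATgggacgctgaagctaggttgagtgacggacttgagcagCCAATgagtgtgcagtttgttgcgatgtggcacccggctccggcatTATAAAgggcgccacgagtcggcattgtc
HNRNPM, chr19:8444725-8444974, plus strand: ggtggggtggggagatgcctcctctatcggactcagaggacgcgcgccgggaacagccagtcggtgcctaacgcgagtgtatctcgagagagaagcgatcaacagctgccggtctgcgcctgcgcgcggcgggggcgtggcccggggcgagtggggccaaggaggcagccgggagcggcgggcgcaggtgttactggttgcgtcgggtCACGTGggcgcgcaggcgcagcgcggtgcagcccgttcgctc

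The window of HNRNPAB held 2 CCAAT boxes, 3 GC boxes and 1 TATA box, and that of HNRNPM held 1 E-box. Of the 53 members 45 had a promoter in the table. The E-box was found in 13.3% of these 45, against 7.84% of 15842 promoters of protein-coding genes. The CCAAT box was found in 40.0% against 34.5%, the GC box in 60.0% against 56.0%, the TATA box in 13.3% against 9.23% and the ETS site in 11.1% against 11.8%. With 3 promoters of members that rose and 5 of members that fell in the trended fit, no motif was compared between them. A match describes the letters in the window and is not evidence of binding.

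HNRNPR, a relative of SYNCRIP, stood at 10.31 in both untreated arrays and at 11.03 and 10.68 in the treated arrays. Its difference of 0.55 (SE 0.20) did not pass (limma adjusted p = 0.0693 in the trended fit), and the pairs gave 0.72 and 0.37. SYNCRIP itself differed by 0.10. In the HNRNPA family, HNRNPA0 had a difference of 0.34, HNRNPA1 0.03 and HNRNPA2B1 -0.21, and 0 of these 3 passed. In the family of HNRNPF and HNRNPH, which bind G-rich runs, HNRNPH2 had 0.25, HNRNPF 0.22, HNRNPH1 -0.05 and HNRNPH3 -0.32, again with 0 passing in either fit. HNRNPL (0.32), which binds CA repeats, HNRNPC (0.25), which binds uridine runs, and HNRNPUL1 (-0.06) did not pass either. The median of the 18 hnRNP genes was 0.16, with 11 higher in both pairs and 7 lower in both. The 11 include HNRNPK on a dim row, while a brighter row that it shares with MIR7-1 had a difference of -0.35. The median was 0.081 without meayamicin B replicate 1 and 0.077 with ribosomal centring. Higher in both pairs were 1290 of the 4575 named genes above background with a mean of at least 8, and 2254 were lower in both.

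**Figure D3:**
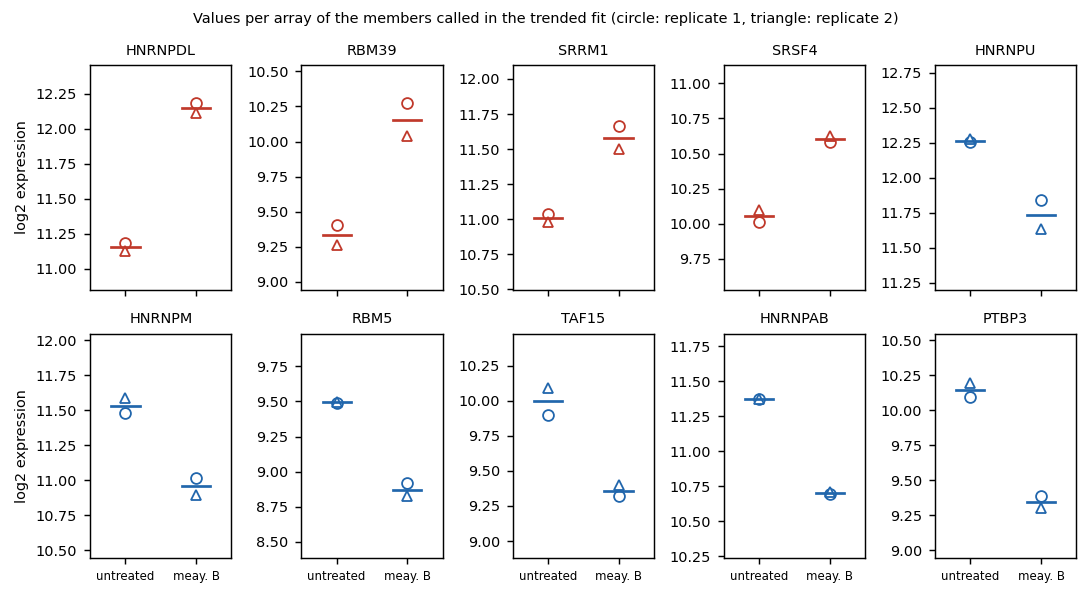
Log2 expression (vertical axis, each panel spanning the same range) in each array for the 10 members called in the trended fit, with circles for replicate 1, triangles for replicate 2 and horizontal bars for the mean of each group of 2 arrays (meay. B is meayamicin B). In each panel the treated and untreated values do not overlap, and the replicates of HNRNPAB lie almost on top of each other.

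The SR and TRA2 genes lay mostly above 0, with 10 of 12 measured members there and a median of 0.24. The median was 0.16 with ribosomal centring and 0.27 after a second quantile normalization. Higher in both pairs were 7 of the 12, and 2 were lower in both. Of the 4575 named genes above background with a mean of at least 8, 1809 lay above 0. Past the trended threshold was 1 gene upward, SRSF4, or 8.33% of the group, against 1.29% of those 4575 genes. Downward it was 0%, against 9.27%. SRSF4 had untreated values of 10.01 and 10.10 and treated values of 10.58 and 10.62, with no overlap. It rose by 0.55 (SE 0.18, limma adjusted p = 0.0292 in the trended fit) and lies on chromosome 1 at 29147743 to 29181900. Its promoter window, shown as that of a gene that rose, held 1 GC box and 1 ETS site.
SRSF4, chr1:29181901-29182150, minus strand: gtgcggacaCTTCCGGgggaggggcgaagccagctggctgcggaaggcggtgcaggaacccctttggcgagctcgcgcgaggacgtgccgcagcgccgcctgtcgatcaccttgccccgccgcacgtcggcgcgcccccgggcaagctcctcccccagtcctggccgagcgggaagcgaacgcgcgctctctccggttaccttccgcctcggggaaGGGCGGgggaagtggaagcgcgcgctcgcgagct
The SRSF4 call was lost with ribosomal centring (limma adjusted p = 0.0538) and when any 1 array was left out (0.0725 to 0.141). SRSF3, a small SR protein that also acts in mRNA export, had untreated values of 10.19 and 9.94 and treated values of 10.62 and 10.42. Its difference of 0.46 (SE 0.20) did not pass (limma adjusted p = 0.133 in the trended fit).

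SRSF6 and SRSF5, which share with SRSF4 a pair of RNA recognition motifs and form a subfamily with it, had the lowest differences of the group. SRSF6 had untreated values of 10.12 and 10.22 and treated values of 9.63 and 9.68, with both treated arrays below both untreated arrays. Its difference was -0.52 (SE 0.18, 95% confidence interval -0.95 to -0.08), just short of the trended threshold (limma adjusted p = 0.0522). SRSF5 had untreated values of 11.56 and 11.33 and treated values of 11.40 and 11.10, so the groups overlapped, and its difference was -0.19 (SE 0.21).

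The other SR genes did not pass in either fit. SRSF7 had a difference of 0.42, SRSF8 0.36 and SRSF1, the prototype of the family, 0.29, each higher in both pairs. The TRA2 proteins, which bind GAA-rich enhancers, had 0.34 for TRA2B and 0.19 for TRA2A. SRSF11 (0.06), SRSF9 (0.05) and SRSF10 (0.01) showed differences within the spread of their replicates, with pairs of opposite sign.

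Of the pyrimidine-tract and poly(C)-binding genes 2 had a row of their own, and they went apart. PTBP3, a paralogue of the splicing repressor PTBP1, lies on chromosome 9 at 112217715 to 112379882. Its untreated values were 10.10 and 10.20 and its treated values 9.39 and 9.30. It fell by 0.80 (SE 0.19, 95% confidence interval -1.24 to -0.37, limma adjusted p = 0.00891 in the trended fit), with -0.71 and -0.90 in the 2 pairs. Without untreated replicate 2 its limma adjusted p was 0.0722. PCBP1, whose gene has no introns, had untreated values of 9.81 and 9.86 and treated values of 10.32 and 10.28, a difference of 0.47 (SE 0.18) with no overlap. It did not pass (limma adjusted p = 0.0683 in the trended fit).

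The other 6 listed genes, SRSF2, HNRNPA3, PTBP1, PCBP2, SON and LUC7L2, lay on rows that also name an overlapping microRNA or transcript, so these rows are not counted among the members and are assigned to no single gene. The row naming PTBP1 and MIR4745 was at 11.43 and 11.55 untreated and at 10.52 and 10.69 treated, a difference of -0.88 (SE 0.19). The row naming SON and MIR6501 went the other way, from 8.96 and 9.24 to 10.13 and 10.07, a difference of 1.00 (SE 0.20). In the trended fit the first fell (limma adjusted p = 0.00358) and the second rose (limma adjusted p = 0.00584). The row of SRSF2 and MIR636 rose by 0.43, just inside the trended threshold (limma adjusted p = 0.0496). The rows naming LUC7L2 (0.46), HNRNPA3 (0.27) and PCBP2 (-0.14) did not pass in the trended fit. In the default fit 0 of 7 shared rows passed and 3 had an unadjusted limma p under 0.05.

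HNRNPK, a poly(C)-binding hnRNP protein, had a dim single-gene row without a gene identifier, at 5.05 and 5.20 untreated and 5.80 and 5.28 treated. That difference of 0.41 (SE 0.23) was 0.75 in one pair and 0.07 in the other. A brighter row naming HNRNPK and MIR7-1 stood at 11.19 and 11.20 untreated and 10.90 and 10.79 treated, a difference of -0.35 (SE 0.18). The sign for HNRNPK therefore depends on the row, and neither row passed in either fit. The negative controls were also higher in the treated arrays, which bears on rows as dim as the first.

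Among 12 other sequence-specific regulators, 8 were lower in both pairs and 4 higher in both, with a median of -0.24. The median was -0.15 without untreated replicate 2 and -0.14 after a second quantile normalization. MBNL2, a dim row, is among the 8. Lower in both pairs were 6679 of the 14296 named genes above background and 2254 of the 4575 with a mean of at least 8. Higher in both were 3658 and 1290 of the same sets. In the trended fit 1 of the 12 rose and 1 fell, or 8.33% each, against 1.29% and 9.27% of those 4575 genes. RBM39, a splicing factor related to U2AF2 and the target of aryl sulfonamide degraders, stood out upward. It lies on chromosome 20 at 35701347 to 35742260, with untreated values of 9.40 and 9.26 and treated values of 10.27 and 10.04. It rose by 0.83 (SE 0.20, 95% confidence interval 0.36 to 1.29, limma adjusted p = 0.0122 in the trended fit). Without untreated replicate 2 (limma adjusted p = 0.0797) or meayamicin B replicate 1 (limma adjusted p = 0.0501) it did not pass. RBM25, a regulator of BCL2L1 splice site choice, had untreated values of 8.02 and 8.04 and treated values of 8.46 and 8.39. Its difference of 0.40 (SE 0.18) exceeded the spread of its replicates but did not pass (limma adjusted p = 0.326 in the trended fit).

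RBM5, a putative tumour suppressor that regulates FAS splicing, had untreated values of 9.49 and 9.50 and treated values of 8.92 and 8.82. It fell by 0.62 (SE 0.18, limma adjusted p = 0.0373 in the trended fit), on chromosome 3 at 50088919 to 50119021. The call was lost after a second quantile normalization (limma adjusted p = 0.0854) and when any 1 array was left out (0.0661 to 0.198). Its paralogue RBM10 went the same way, with a difference of -0.46 that did not pass (SE 0.20, limma adjusted p = 0.432 in the trended fit).

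TIA1, which binds uridine-rich sequences next to weak donor sites and helps to recruit the U1 snRNP, had untreated values of 8.41 and 8.44 and treated values of 7.86 and 7.45. The groups did not overlap, but the treated arrays lay far apart, and the difference of -0.77 (SE 0.21) did not pass (limma adjusted p = 0.0691 in the trended fit). Its paralogue TIAL1 had untreated values of 8.48 and 8.45 and treated values of 8.48 and 8.57, a difference of 0.07 (95% confidence interval -0.37 to 0.50). MBNL1, a muscleblind regulator of developmental exons, differed by -0.07 (SE 0.19). MBNL2 was at 5.32 and 4.73 untreated, above background in 1 of 2 arrays, and at 4.07 and 4.10 treated, below it in both. Its measured difference was -0.94 (SE 0.24). No fold is given because the mean of its untreated values did not exceed the mean background of the treated arrays. CELF1 (-0.37), QKI (-0.29), the STAR protein KHDRBS1 (-0.19) and the AU-rich element binding protein ELAVL1 (0.19) did not pass.

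The TARDBP, FET and DBHS genes had no common direction, with a median of 0.07 over 5 genes that was -0.0085 with ribosomal centring and -0.031 without untreated replicate 2. TAF15, an RNA-binding protein of the FET family, had untreated values of 9.90 and 10.09 and treated values of 9.32 and 9.40. It fell by 0.64 (SE 0.19, limma adjusted p = 0.0311 in the trended fit), and its relative EWSR1 differed by 0.07 (SE 0.20) with pairs of opposite sign. The TAF15 call was lost when any 1 array was left out (0.0640 to 0.230) and after a second quantile normalization (limma adjusted p = 0.0559). TARDBP, which encodes TDP-43 and regulates its own mRNA, had untreated values of 9.90 and 9.93 and treated values of 10.35 and 10.30, a difference of 0.41 (SE 0.18, limma adjusted p = 0.111 in the trended fit). The paraspeckle proteins NONO, at 10.58 and 10.46 untreated and 10.76 and 10.59 treated, and SFPQ, at 10.59 and 10.55 untreated and 10.58 and 10.41 treated, had differences of 0.15 and -0.07 that did not pass.

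Of the genes of nuclear speckle proteins, SRRM1, a coactivator rich in arginine and serine that bridges exonic enhancers to the spliceosome, had untreated values of 11.04 and 10.98 and treated values of 11.67 and 11.50. It rose by 0.57 (SE 0.19, limma adjusted p = 0.0164 in the trended fit), on chromosome 1 at 24643302 to 24673281. Without untreated replicate 1 or 2, or without meayamicin B replicate 1, its limma adjusted p lay between 0.0557 and 0.101. SRRM2, a scaffold of nuclear speckles, had untreated values of 9.41 and 9.74 and treated values of 9.85 and 9.71, so the groups overlapped, and differed by 0.21 (SE 0.21). LUC7L and LUC7L3 are relatives of a yeast U1 snRNP protein that affects donor site choice. LUC7L had untreated values of 7.63 and 7.50 and treated values of 7.78 and 7.98, a difference of 0.32 (SE 0.19), and LUC7L3 had 10.74 and 10.79 against 11.08 and 10.74, a difference of 0.14 (SE 0.20). Neither passed in either fit.

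Another 7 members had a second, dimmer single-gene row. In limma 0 of the 7 passed in the default or the trended fit, and 3 had an unadjusted p under 0.05. The second row of SFPQ was at 7.09 and 7.25 untreated and 7.62 and 8.08 treated, a difference of 0.68 (SE 0.22), against -0.07 on its bright row. The second row of TAF15 also differed in sign, at 0.29 (SE 0.25), with pairs of 0.75 and -0.18. Averaging all rows of a gene removed the trended calls of SRRM1, whose second row lay at 2.04 untreated, and of TAF15 (limma adjusted p = 0.645 and 0.833). The second row of TIAL1 had a group mean of 4.88 untreated and 5.80 treated, a difference of 0.92 (SE 0.31) that did not pass.

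Pseudogenes of members, taken by symbol, can share probe sequence with their parent. They were represented by 128 named genes, 69 of them pseudogenes of HNRNPA1. Their median difference was 0.02, and 71 lay above background. In the trended fit 1 of the 128 was called, HNRNPUP1, the pseudogene of HNRNPU. It fell by 0.73 (SE 0.19, limma adjusted p = 0.0106) beside the fall of 0.53 in its parent. That fit called 0.348% of all named genes higher and 2.8% lower, and 0.727% and 6.53% of those above background. HNRNPKP4 (-0.81) and HNRNPKP1 (-0.82) had the lowest values above background without passing. Signal from parent and pseudogene cannot be told apart in these values.

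**Figure D4:**
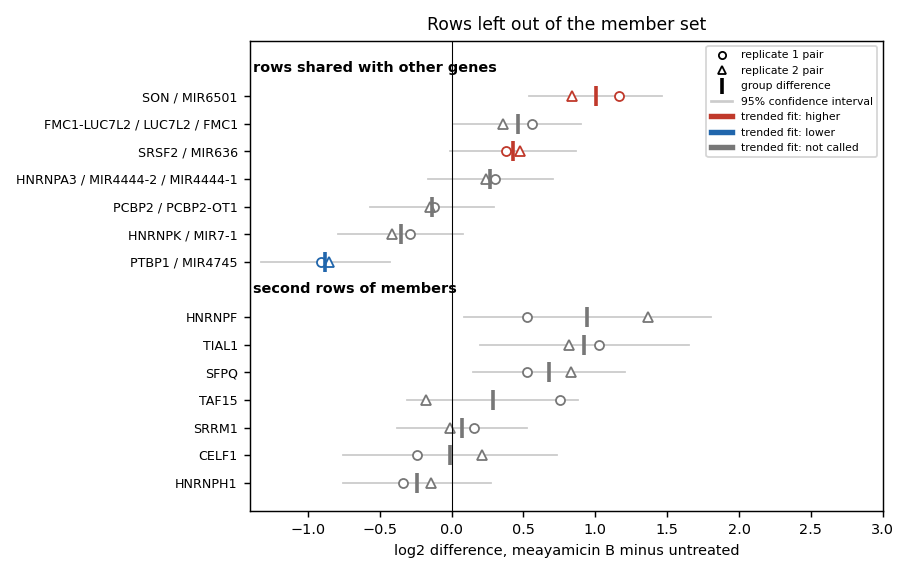
Log2 difference (horizontal axis, meayamicin B minus untreated) of the 7 rows that name a listed gene together with other genes and of the 7 second rows of members, with circles and triangles for the replicate 1 and 2 pairs, bars for the group difference and grey lines for the 95% confidence interval of the default fit. The row naming SON lies at 1.00 and the row naming PTBP1 at -0.88, and both replicate pairs lie on the same side of 0 in each.

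Over 53 members the difference and the mean level correlated at a Pearson's r of 0.21 (Spearman's rho 0.07). Over the 52 members with a RefSeq length, difference and log10 gene length correlated at -0.31 (rho -0.23), beside -0.27 (rho -0.28) over 12039 named genes above background. These are descriptions across genes that share the same arrays. HNRNPA0 and SRSF8, which like PCBP1 are encoded without introns in the coding sequence, had differences of 0.34 and 0.36. Each of these 3 genes was higher in both pairs, and the 3 were picked out after their values were seen.

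Other splicing regulators, a list of 56 genes of related function, had 48 measured genes with a median difference of -0.09. In the trended fit 3 rose and 5 fell, or 6.25% and 10.4%, beside 7.55% and 11.3% of the members. The shares were 0.727% and 6.53% of named genes above background, and 1.29% and 9.27% of those with a mean of at least 8. The downward share thus lies close to that of the brighter set. In limma's default fit 0 of the 48 passed and 19 had an unadjusted p under 0.05. Of the 14296 named genes above background, 3357 had such a p. SCAF4, which binds the tail of RNA polymerase II, rose from 8.21 and 8.55 to 9.36 and 9.28 (difference 0.94, SE 0.20, limma adjusted p = 0.0150 in the trended fit). HNRNPLL, the HNRNPL paralogue known for CD45 exon choice in lymphocytes, rose by 0.87 (SE 0.19), and RBM3, a cold-inducible protein, rose by 0.62. CIRBP, the other cold-inducible protein of that kind, fell by 0.63, as did the zinc finger protein ZRANB2 (-0.90), the paraspeckle protein PSPC1 (-0.86), RALY (-0.70) and FUBP1 (-0.67). PTBP2, the neuronal paralogue of PTBP1, had a difference of 0.63 (SE 0.21) that did not pass (limma adjusted p = 0.233 in the trended fit). Its sign was opposite to that of PTBP3, and the difference between them was not tested.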

How the data were processed

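Each of 4 RNA samples was hybridised to a whole-transcript array. The authors deposited log2 values, 1 per row and array, and per the submitters' processing notes used RMA and Transcriptome Analysis Console with build hg38, with versions not given in the sources used here. RMA equalises arrays, so a shift of all RNA would be removed. Of 138745 rows, 2995 control rows were left out and 135750 tested. Gene names came from the platform annotation (36176 rows with 1 symbol, 1119 with several, 98455 with none), updated through RefSeq (GRCh38.p14). The contrast was tested with limma 3.58.1 (R 4.3.3), using Benjamini-Hochberg adjustment over all rows and a threshold of 0.05. Residual degrees of freedom were 2 and the default prior added 5.12. SEs and intervals are those of the default fit throughout. The method was tested on simulated data. Members, lists and the trended fit were chosen with earlier results of these data known. Values in every array are given for members past the threshold in either fit and for the 2 highest and 2 lowest above background of each role group (all of a group of 4 or fewer). HNRNPD, TIAL1, MBNL2 and HNRNPK were added after their values were seen. Of the other regulators, those past a threshold were named, and PTBP2 was added after its value was seen. The default fit had no replicate block. Alternatives were the trended prior, a replicate block, a filter on dim rows, quantile normalization, centring on 74 ribosomal protein genes, the mean of a gene's rows and leaving out each array.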

Additional observations from a re-analysis of the deposited data

How the results depend on the processing

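The trended fit was planned as an alternative, with earlier results of these data known. It moved the default counts of members from 0 to 4 higher and from 0 to 6 lower. Those of the 48 other regulators moved from 0 to 3 higher and from 0 to 5 lower. Leaving out dim rows, which tests fewer rows, gave 2 members higher and 1 lower, and 2 and 1 of the other regulators, in the default fit (HNRNPDL, RBM39 and PTBP3 among the members). In the trended fit it gave 11 members higher, and 6 and 9 of the other regulators. Settings that combine the trended fit with another choice, the replicate block apart, were chosen after seeing the data. The replicate block gave 11 members higher in the trended fit, with 8 lower, and 7 other regulators higher. Of the named members, it gained the calls of HNRNPR, PCBP1, SRSF3 and TARDBP upward and of SRSF6 and TIA1 downward. Deviations of arrays with the same number correlated at 0.02 over all rows and at 0.07 over rows above background. The numbers were not taken to pair the samples, and differences by pair are given as a description only. In the trended fit, a second quantile normalization and the mean of a gene's rows each left 3 other regulators lower. Leaving out 1 array gave 0 calls in the default fit, and in the trended fit 1 to 4 members higher, 1 to 5 lower, and 1 to 3 and 0 to 3 of the other regulators. The causes of these changes were not tested. Shares of all named genes are given only for the main default and trended fits. The counts under other settings are therefore not a result about these genes in particular. The members' median of 0.10 moved to 0.19 after quantile normalization and 0.017 with ribosomal centring, and lay between 0.08 and 0.16 with an array left out. Among 23 named members the sign reversed for LUC7L3 without meayamicin B replicate 1 (-0.024, in a range of -0.024 to 0.31 with an array left out). It also reversed for SFPQ with the mean of its rows (0.30) and without meayamicin B replicate 2 (0.011, in a range of -0.16 to 0.011). Signal near background limited MBNL2 and the single-gene row of HNRNPK.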
